A study of Danio rerio with 10 samples.

Results

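The mitochondrial respiratory chain and the ATP synthase were followed through 112 of the 32520 genes counted by RNA-Seq in whole zebrafish larvae at 5 dpf (days post fertilization). The genes were picked by symbol: the nuclear families ndufa, ndufb, ndufc, ndufs, ndufv, sdha to sdhd, uqcr, cox4 to cox8 and atp5, and the mitochondrial genes mt-nd, mt-co, mt-cyb and mt-atp. A mean of at least 10 normalized counts was also required. Of 115 matching genes, *ndufs8b*, *sdhda* and *ndufa4l2b* fell below it, with means of 4.11, 4.49 and 2.86 normalized counts. The genes kept comprise 99 nuclear and 13 mitochondrial ones, and all 112 passed the filter used for testing. Normalized counts are reads over a size factor that each library has. The symbols COX5B, NDUFB1 and COX7A2, written in capitals in the annotation, lie outside this choice.

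The study asked how a mixture of persistent organic pollutants (POPs), composed after the levels measured in human blood, affects development. AB strain embryos were kept in E3 medium with the mixture at 125 times (POP125x, 4 samples) or 75 times (POP75x, 3 samples) the human blood level, or without it (control, 3 samples). Every group, control included, carried 0.1% of the solvent DMSO, and exposure ran from the first hours after fertilization to 5 dpf with renewal of the medium. Each sample is a pool of whole larvae, 75 per pool by the sample descriptions, while the study's methods give another pool size. In such a pool, fewer cells of a type and less RNA per cell cannot be told apart. Nothing says which pools came from the same experiment, so p-values measure the spread between these samples.

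The respiratory chain lies in the inner mitochondrial membrane. Complex I takes electrons from NADH and complex II from succinate, ubiquinone carries them to complex III, cytochrome c carries them on to complex IV, and complex IV hands them to oxygen. Complexes I, III and IV pump protons across the membrane, and the ATP synthase, complex V, lets them flow back while it makes ATP. The mitochondrial genome encodes a few core subunits of all of these but complex II. It is transcribed as long RNAs that are cut into shorter messengers. The nucleus encodes the other subunits together with the factors that assemble the complexes. Skeletal muscle, heart and ionocytes are rich in these proteins in fish larvae.

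Reads on genes ranged from 13659239 to 20267255 per library. Of 47 marker symbols of 10 tissues, from skeletal muscle to exocrine pancreas, 45 were found, and 0 of them were at 0 in any library. The libraries were cut into 3 clusters by their likeness over all genes tested, and the number 3 was set, not found. Libraries of the same condition fell in different clusters, but unevenly, so cluster and condition cannot be fully separated. The clusters were the same when the 112 genes, a small part of the genes tested, were left out. The sets still come from the same libraries, and over all genes tested from the same values that were then tested. Set A held POP125x replicates 1 and 2 and POP75x replicate 2, and no control. Set B held POP125x replicates 3 and 4, POP75x replicate 4 and control replicate 1. Set C held POP75x replicate 3 and control replicates 2 and 4. Genes of the circadian clock (18 genes) differed between the sets as well: their median log2 deviation from the mean of all libraries was between -1.0 and -0.77 in set A, between 0.31 and 0.77 in set B and between 0.08 and 0.32 in set C. What the sets stand for is not given in the sources used here, and the results were also taken within sets and with the set as a term in the fit.

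With all 10 libraries, condition as the only term and limma as the test, 0 of the respiratory chain genes passed the threshold at either dose. At POP125x against control, 0 of 112 had an adjusted p under 0.05 (limma with Benjamini-Hochberg adjustment over 21563 genes), where 1.70% of all genes tested did. An unadjusted p under 0.05 was reached by 4 of them, or 3.57%, a share below the 21.0% of all genes. These were *ndufaf1*, *cox6b2* and *ndufa4*, which were higher in POP125x, and *cox4i1l*, which was lower. edgeR gave 0 calls too, where it called 1.32% of all genes. DESeq2 gave 2, *ndufaf1* (higher) and *cox4i1l* (lower), where it called 7.49% of all genes. The median log2 fold change of the 112 genes was 0.06, against -0.01 for all genes, with 62 genes above 0 and 50 below, and without control replicate 1 it was -0.10. The 95% interval of a gene, which is not adjusted for the number of genes, reached a median of 0.58 to each side on the log2 scale. Shifts smaller than that were mostly not detectable with these replicates. The adjusted threshold asked for more, so larger shifts could be missed too.

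At POP75x against control, 0 of 112 genes passed the threshold (limma, Benjamini-Hochberg adjusted), as did 0% of all genes tested. DESeq2 and edgeR also called 0 of the 112, where they called 0.589% and 0% of all genes. Without adjustment 7 of them, or 6.25%, had a p under 0.05, next to 5.91% of all genes, all 7 higher in POP75x. The fold changes leaned upwards at this dose: 94 of 112 were above 0, with a median log2 fold change of 0.21, where 50.0% of all genes were above 0. The lean depended on single libraries. Without POP75x replicate 3 the median was -0.10, and without control replicate 1 it was 0.04. Between POP125x and POP75x, 0 of 112 genes were called by limma, where 0% of all genes were, and 0 had an unadjusted p under 0.05, where 4.87% of all genes did. edgeR and DESeq2 called 0 there as well, where they called 0% and 0.124% of all genes. The median of that difference was -0.16, and 0.14 without POP75x replicate 3.

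By complex, the medians at POP125x against control were -0.04 for the 36 nuclear genes of complex I, 0.16 for the 4 of complex II, 0.14 for the 8 of complex III, -0.03 for the 21 of complex IV and -0.03 for the 17 of complex V. All 4 genes of complex II and 7 of 8 nuclear genes of complex III were above 0. The 11 assembly factors matched by symbol had a median of 0.16, and *atp5if1a* and *atp5if1b*, inhibitors that stop the ATP synthase from running backwards, had a median of 0.24. At POP75x against control the medians were 0.17, 0.31, 0.23, 0.21 and 0.26 for nuclear complexes I to V, and all 17 genes of complex V were above 0. None of these medians carries a test.

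**Figure D1:**
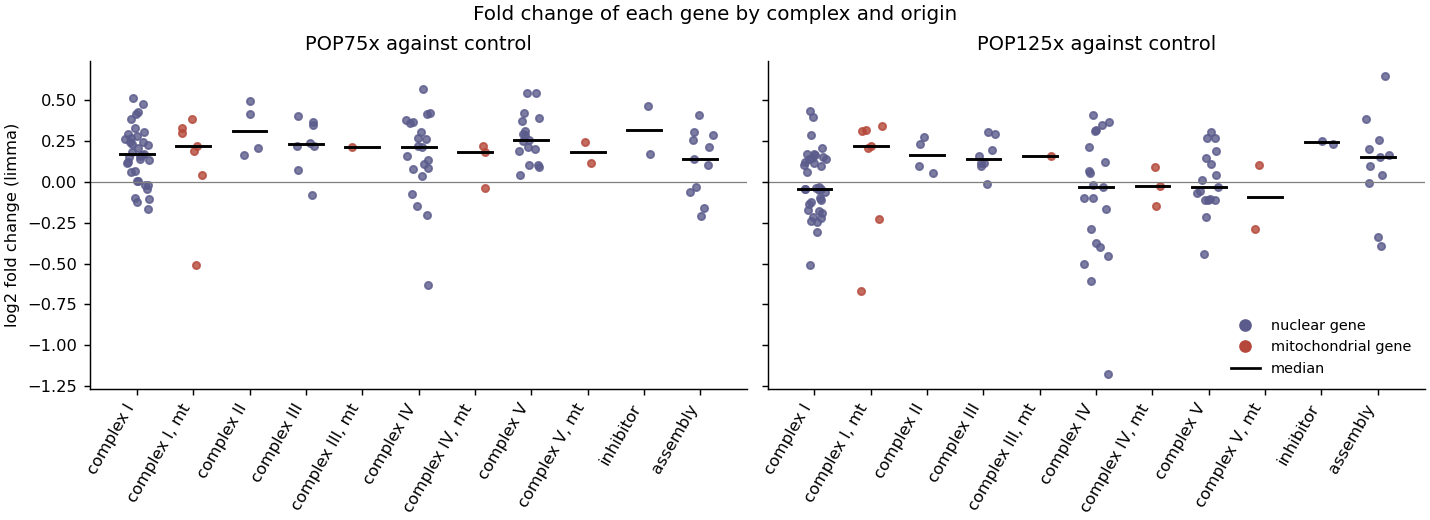
Log2 fold change of each of the 112 genes (points) by complex, for POP75x (left) and POP125x (right), each against control, with black bars for the median of each column. Purple points are nuclear genes, red points mitochondrial genes; at POP75x 94 of 112 points lie above 0, at POP125x 62 do.

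In complex I the highest nuclear fold change at POP125x belonged to *ndufb4* (ENSDARG00000019332), an accessory subunit of the membrane arm. It had 631, 776, 870 and 895 normalized counts in POP125x libraries, against 499, 569 and 692 in control libraries. The groups overlapped by 1 library, POP125x replicate 1. At 0.43, its log2 fold change had a standard error (SE) of 0.21 and an adjusted p of 0.26 in limma. POP75x libraries had 569, 953 and 606 counts, with replicate 3 above every control and the others among them.

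Complex II, succinate dehydrogenase, also works in the tricarboxylic acid (TCA) cycle and has no mitochondrially encoded subunit. Its membrane anchor *sdhc* (ENSDARG00000038608) had 550, 564, 588 and 615 normalized counts in POP125x, against 440, 502 and 499 in controls, with no overlap. Its log2 fold change was 0.27 (limma, adjusted p = 0.44, SE 0.20). POP75x libraries had 540, 952 and 510 counts of *sdhc*, all above the controls as well, and a log2 fold change of 0.42 (SE 0.21). The flavoprotein subunit *sdha*, which binds succinate, had the lowest value in the complex, 0.05 (SE 0.28), with 7683 to 10034 normalized counts in POP125x and 5930 to 10175 in controls.

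Complex III passes electrons to cytochrome c, and its core protein *uqcrc2* exists as a pair of paralogues. For *uqcrc2b*, POP125x libraries held 2099, 2291, 2252 and 2412 normalized counts, against 1847, 1894 and 1748 in controls. All exposed libraries were higher than all controls, at POP75x too (1908, 2747 and 2415). The log2 fold change was 0.31 (adjusted p = 0.26, SE 0.15) at POP125x and 0.35 (adjusted p = 0.84, SE 0.16) at POP75x in limma. The sister gene *uqcrc2a* had 1924, 2525, 2082 and 2377 normalized counts in POP125x and 1568, 2824 and 2528 in controls, a log2 fold change of -0.01 (SE 0.31). The reads of the 8 nuclear genes of complex III together made up 0.105 to 0.120% of a POP125x library and 0.101 to 0.128% of a POP75x library, against 0.0954 to 0.0984% of a control library. The exposed ranges did not overlap with that of the controls, unlike those of nuclear complexes I, II, IV and V. A share of all reads also depends on the other genes of a library. As summed normalized counts, complex III overlapped between exposed and control libraries. By gene, *uqcrc1* and *uqcrc2b* of the 8 were higher than all controls in every POP125x library, where 12.4% of all genes were. At POP75x *uqcrc1*, *uqcrc2b* and *uqcrh* were, where 4.94% of all genes were.

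Complex IV, cytochrome c oxidase, held the gene with the largest fold change of all 112. This was *cox4i1l* (ENSDARG00000012388), by its symbol a relative of the regulatory subunit gene *cox4i1*. Its level was low throughout: 11.6, 28.0, 26.2 and 24.4 normalized counts in POP125x, against 54.4, 52.8 and 42.3 in controls. Every POP125x library lay below every control, and the log2 fold change was -1.17 (SE 0.36, 95% interval -1.97 to -0.38, adjusted p = 0.12 in limma). With DESeq2 it passed the threshold (adjusted p = 0.0442). POP75x libraries had 21.5, 50.1 and 29.3 counts and overlapped with the controls, at a log2 fold change of -0.63 (SE 0.39). For *cox4i1* itself the counts were 2909, 2830, 3332 and 3545 in POP125x and 2451, 3500 and 3148 in controls, a log2 fold change of 0.07 (SE 0.26). The further paralogue *cox4i2*, in mammals a subunit form tied to low oxygen, had 157 to 271 counts in POP125x and 151 to 253 in controls, which overlapped. The fitted value of *cox4i1l* kept its sign over 26 alternatives but ran from -1.35 to -0.14.

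At the other end of complex IV stood *cox5b2*, a paralogue of the zinc-binding subunit, with 97.7, 90.0, 106 and 91.7 normalized counts in POP125x, against 75.4, 67.5 and 73.8 in controls. The groups did not overlap, and the log2 fold change was 0.41 (limma, adjusted p = 0.25, SE 0.19). Under the symbol COX5B, outside the choice of genes, ENSDARG00000015978 had far higher counts that overlapped. They were 2191, 2457, 3032 and 3483 in POP125x, against 1726, 3907 and 4685 in controls. Another COX5B entry, ENSDARG00000113254, overlapped too, with 23.1 to 48.9 counts in POP125x and 43.3 to 52.5 in controls. A further pair of genes, chosen after their values were seen, was separated like *cox5b2*. The subunit gene *cox6b2* had 1747, 2004, 2027 and 1984 normalized counts in POP125x, against 1745, 1444 and 1495 in controls, with the lowest POP125x library only just above control replicate 1. The fold change was, on the log2 scale, 0.32 (adjusted p = 0.21, SE 0.13) at POP125x and 0.36 (adjusted p = 0.74, SE 0.14) at POP75x in limma. Its paralogue *cox6b1* leaned the other way at POP125x, with a log2 fold change of -0.50. It had 332, 533, 760 and 841 counts in POP125x, against 622, 884 and 1004 in controls, which overlapped. *ndufa4*, first assigned to complex I and now known as a subunit of complex IV, had 1535, 1873, 1806 and 1701 normalized counts in POP125x, against 1320, 1368 and 1320 in controls. Its log2 fold change was 0.37 (adjusted p = 0.20, SE 0.15) at POP125x and 0.31 (adjusted p = 0.87, SE 0.16) at POP75x by the same test. The paralogue *ndufa4l* overlapped, with 1669 to 2293 counts in POP125x and 1545 to 2076 in controls, at a log2 fold change of 0.05.

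In the ATP synthase the highest value was that of *atp5meb*, subunit e, which sits where pairs of the enzyme meet. Its counts were 1669, 1903, 1882 and 1944 in POP125x, against 1404, 1487 and 1601 in controls, without overlap. The log2 fold change was 0.30 (limma, adjusted p = 0.24, SE 0.14). The paralogue *atp5mea* overlapped between these groups, with 216, 189, 272 and 257 counts in POP125x and 261, 184 and 172 in controls. At POP75x it had 269, 342 and 282 counts, all above the controls. The lowest value was that of *atp5pf*, coupling factor 6 of the peripheral stalk, with 866, 926, 1016 and 1404 normalized counts in POP125x, against 1016, 1787 and 1526 in controls. In log2 terms the change was -0.44 (SE 0.36), within the spread of the replicates.

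Among the assembly factors, *ndufaf1* (ENSDARG00000025549), which helps to build the membrane arm of complex I, came closest to the threshold of all 112 genes. It had 569, 648, 713 and 678 normalized counts in POP125x, against 355, 447 and 449 in controls. The groups lay well apart, and POP75x libraries (530, 649 and 488) were above all controls too. The log2 fold change was 0.65 at POP125x (SE 0.16, 95% interval 0.31 to 0.99, adjusted p = 0.0636) and 0.41 at POP75x (adjusted p = 0.76, SE 0.17) in limma. It was called at POP125x in 10 of 26 alternative fits, with log2 fold changes from 0.54 to 0.92, among them DESeq2 (adjusted p = 0.00421). *ndufaf3*, which acts early in the assembly of complex I, had the lowest value, -0.39 (SE 0.39), with 415, 587, 642 and 650 counts in POP125x and 482, 893 and 945 in controls.

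**Figure D2:**
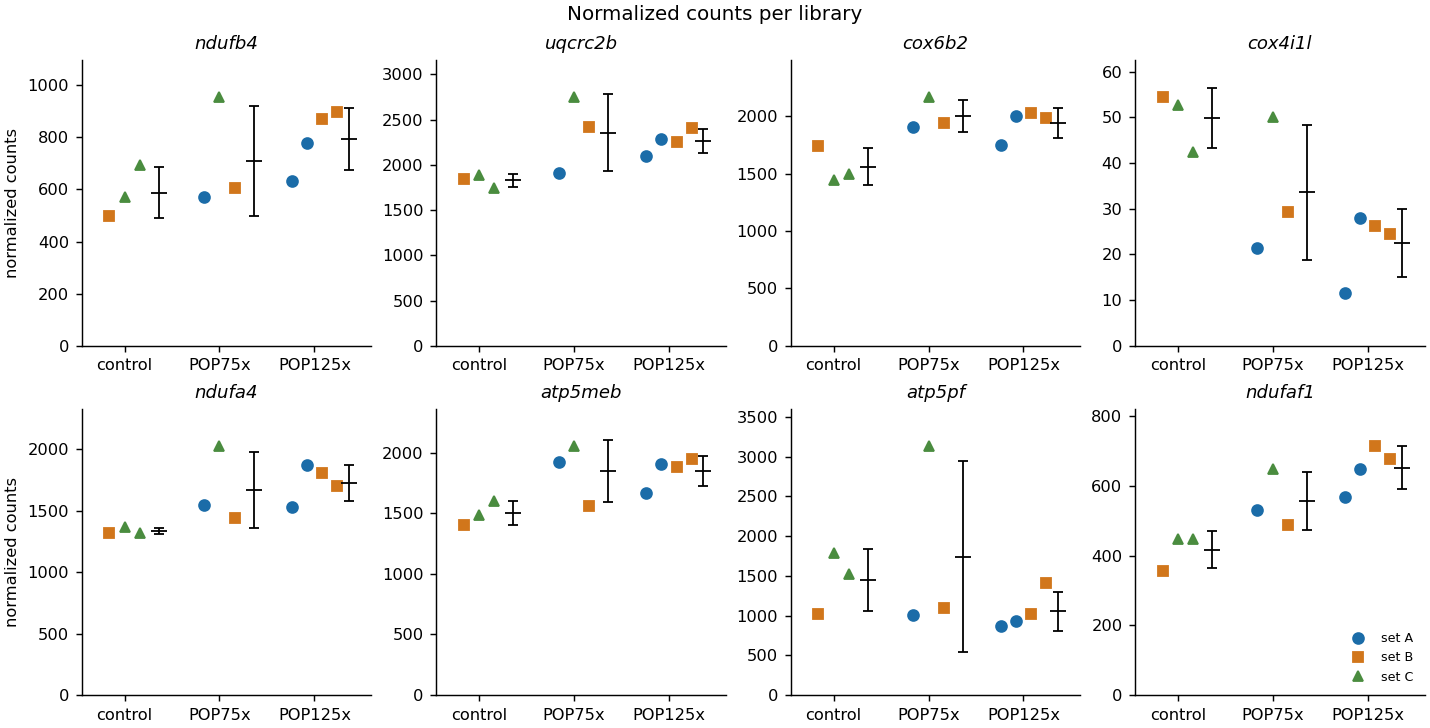
Normalized counts of 8 nuclear genes in each library (points) by condition, from control to POP125x, with the mean and SD of each condition beside the points; marker shape and color give the set. *ndufaf1*, *ndufa4*, *uqcrc2b*, *cox6b2* and *atp5meb* lie above all controls in every POP125x library and *cox4i1l* below them, while POP75x replicate 3 is the highest library for *ndufb4*, *uqcrc2b*, *cox6b2*, *ndufa4*, *atp5meb* and *atp5pf*.

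Counted over all 112 genes, 11 were higher in every POP125x library than in every control (9.82%), where 12.4% of all genes were. These were *ndufab1a*, *sdhc*, *uqcrc1*, *uqcrc2b*, *cox5b2*, *cox6b2*, *ndufa4*, *atp5f1e*, *atp5meb*, *ndufaf1* and *atp5if1b*. Only *cox4i1l* was lower in all, 0.893% of the genes, where 11.6% of all genes were. At POP75x, 14 were higher than all controls (12.5%), where 4.94% of all genes were, and 0 were lower, where 4.38% were. Between POP125x and POP75x, 0 were separated, where 5.69% of all genes were. Of the 11 genes separated upwards at POP125x, *ndufab1a*, *sdhc*, *uqcrc1*, *uqcrc2b*, *cox6b2*, *ndufa4*, *atp5f1e* and *ndufaf1* were so at POP75x too. The doses share their controls, so the lists are not independent of each other.

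The 13 mitochondrial genes took a larger part of the reads than the 99 nuclear ones. They made up 7.21, 8.06, 7.12 and 7.25% of reads in POP125x libraries, against 5.31, 7.14 and 7.97% in controls, and 7.67, 8.79 and 5.94% in POP75x. Nuclear genes took 1.04, 1.1, 1.17 and 1.26% of reads in POP125x, against 0.949, 1.20 and 1.15% in controls, and 1.03, 1.65 and 1.12% in POP75x. Both shares overlapped between the conditions. The ratio of mitochondrial to nuclear reads averaged 6.52 ± 0.72 in POP125x (SD, n = 4) and 6.15 ± 0.69 in controls (SD, n = 3), and 6.04 ± 1.23 in POP75x (SD, n = 3). These differences were smaller than the spread within each condition.

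Mitochondrial genes did not all move alike. Log2 fold changes at POP125x against control ran from -0.67 for *mt-nd6* to 0.34 for *mt-nd3*, both subunits of complex I, with a median of 0.10 and 8 of 13 above 0. For *mt-nd3* the counts were 3306, 4037, 3134 and 3485 in POP125x, against 2103, 3276 and 2974 in controls, a log2 fold change of 0.34 (limma, adjusted p = 0.33, SE 0.20). The gene in the middle was *mt-atp6*, subunit a of the proton channel of the ATP synthase, with 182805, 235895, 216393 and 208857 counts in POP125x, against 143637, 196200 and 266997 in controls. Its log2 fold change was 0.10 (SE 0.37) and fell within the spread of the controls. Cytochrome b (*mt-cyb*), the single mitochondrial subunit of complex III, had 102880 to 114735 counts in POP125x and 77926 to 115993 in controls. *mt-atp8* overlaps *mt-atp6* and *mt-nd4l* overlaps *mt-nd4* in vertebrate mitochondrial genomes, so reads in the overlaps could count for either gene.

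*mt-nd6* is the one protein gene of the vertebrate mitochondrial genome that is read from the other strand. It had 993, 832, 1021 and 995 normalized counts in POP125x, against 935, 1472 and 2561 in controls. The groups overlapped through control replicate 1, and the log2 fold change of -0.67 (SE 0.36) had an adjusted p of 0.30 in limma. Relative to the other 12 mitochondrial genes of the same library, the picture was different. Per 1000 counts of those, *mt-nd6* had 0.866, 0.622, 0.894 and 0.836 counts in POP125x and 0.570, 1.00 and 1.02 in POP75x, against 1.19, 1.14 and 1.72 in controls. All 7 exposed libraries lay below all controls, whatever their set. This ratio was taken up after its values were seen and carries no test. It is a ratio of counts, and whether the mRNA kit captured *mt-nd6* like the other 12 genes was not tested. The kit keeps strand, but the strand setting of the counting is not given in the sources used here, so reads of *mt-nd6* and reads antisense to it cannot be told apart.

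Across the 10 libraries the nuclear genes moved together. The median Pearson correlation between pairs of them was 0.75, and 70 of 99 correlated with their common median above 0.8, as did 6.31% of all genes. The genes form that median themselves and share the library's scaling, so this describes these libraries only. *ndufs1*, a core iron-sulfur subunit of complex I, followed the median closest (r = 0.99), and *ndufa4l2a* (r = -0.16), *cox6b2* (0.27), *atp5mea* (0.32), *ndufaf2* (0.36) and *cox4i1l* (0.37) least. The median pair among mitochondrial genes was at 0.80, while *mt-nd6* had a median of 0.51 with the other 12 and only 0.03 with *mt-nd3*.

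Most of this shared variation separated single libraries rather than conditions. The median log2 deviation of the nuclear genes was 0.76 in POP75x replicate 3, where all 99 lay above their mean, and -0.38 in control replicate 1, where 4 did. The remaining 8 libraries lay between -0.25 and 0.15. The mitochondrial genes gave 0.60 and -0.63 in the same 2 libraries. Skeletal muscle markers gave 1.05 in POP75x replicate 3 and -0.46 in control replicate 1, and over the 10 libraries their median correlated with that of the nuclear genes at r = 0.95. All 8 muscle markers were found, and their summed level was 851130 to 963008 normalized counts in POP125x and 810052 to 1690480 in POP75x, against 770909 to 1170500 in controls. Markers of erythrocytes (r = 0.91), liver (0.87), exocrine pancreas (0.85) and photoreceptors (0.76) had similar courses, and those of ionocytes (0.68) and epidermis (0.55) followed less closely. Markers of heart (0.29), slow muscle (-0.05) and neurons (-0.06) did not follow. These are descriptions over 10 libraries with shared scaling, and the part of tissue makeup in the fold changes was not tested.

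**Figure D3:**
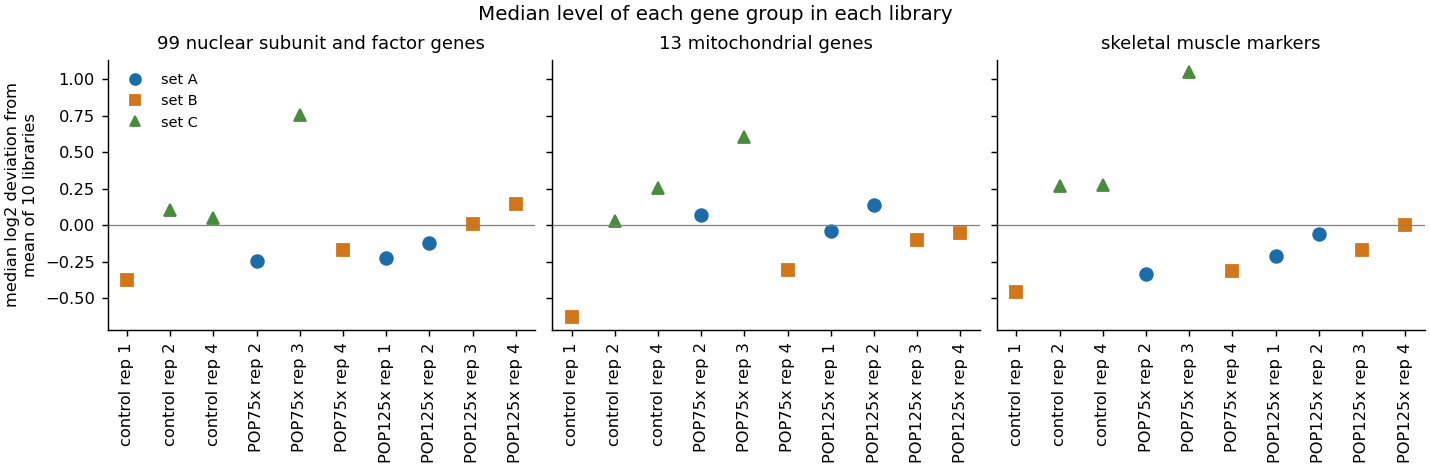
Median log2 deviation from the mean of the 10 libraries for the 99 nuclear genes (left), the 13 mitochondrial genes (middle) and the skeletal muscle markers (right), one point per library, ordered from control to POP125x; marker shape and color give the set. POP75x replicate 3 is the highest and control replicate 1 the lowest point of each panel.

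Within a set, exposed libraries were compared with the controls that clustered with them. In set B, all 3 exposed libraries lay above control replicate 1 for 92 of 112 genes (82.1%), where 32.1% of all genes behaved so. The median difference from that control was 0.42 for POP125x replicate 3, 0.54 for POP125x replicate 4 and 0.21 for POP75x replicate 4 on the log2 scale. In set C, POP75x replicate 3 lay above control replicates 2 and 4 for 108 of 112 genes (96.4%), where 41.1% of all genes did, with a median difference of 0.67. Each of these comparisons rests on 1 library on one side, and the 2 libraries at stake are the ones that stand apart in the medians above.

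**Figure D4:**
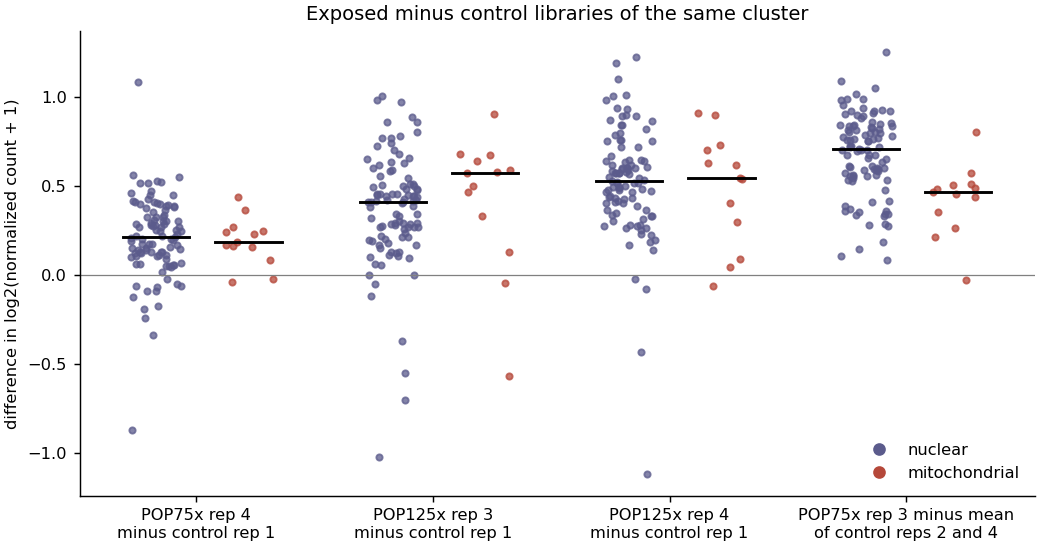
Difference in log2(normalized count + 1) between each exposed library and the control libraries of the same set, one point per gene, nuclear genes in purple and mitochondrial genes in red, black bars for medians. All columns have medians above 0; those of all 112 genes are 0.21, 0.42, 0.54 and 0.67 from left to right.

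With the set as a term in the fit, the result turned from 0 calls to a majority of the genes. At POP125x against control, 68 of 112 genes (60.7%) were higher and 0 lower (limma, Benjamini-Hochberg adjusted), where 8.01% of all genes were higher, and the median log2 fold change was 0.59. At POP75x, 57 (50.9%) were higher and 0 lower, where 3.57% of all genes were higher, with a median of 0.48. By complex, 28 of 36 nuclear genes of complex I, 3 of 4 of complex II, 7 of 8 of complex III, 8 of 21 of complex IV, 12 of 17 of complex V, 5 of 11 assembly factors and 3 of 13 mitochondrial genes were called at POP125x. The genes with the largest fold changes among the called ones were chosen after their values were seen. They were *atp5f1d* (1.08, SE 0.13), *ndufa9b* (1.03, SE 0.25), *ndufv2* (0.99, SE 0.14), *cox7a2l* (0.98, SE 0.12) and *sdhb* (0.95, SE 0.11). Of these, *atp5f1d* encodes the delta subunit of the ATP synthase, *ndufv2* an iron-sulfur subunit of complex I and *sdhb* that of complex II. The level of *ndufa9b* was low, with a mean of 44.7 normalized counts. Between the doses 0 of the 112 were called with the set as a term.

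The call with the set as a term leans on the 2 libraries that link sets and conditions. For *atp5f1d*, set B had 2770 and 3198 normalized counts in POP125x and 2049 in POP75x, against 1403 in control replicate 1. In set C it had 6096 in POP75x replicate 3, against 3229 and 4015 in controls, and set A, with no control, had 2081 and 2161 in POP125x and 1800 in POP75x. Across all libraries the POP125x values thus lay inside the range of the controls. Without control replicate 1, the fit with the set as a term called 64 genes higher at POP125x, where 3.57% of all genes were, and 65 at POP75x, where 3.80% were. Only set C then holds a control, so every difference from control rests on POP75x replicate 3. Without POP75x replicate 3 the fit with the set as a term called 32 at POP125x, where 5.82% of all genes were, and 0 at POP75x, where 0.661% were. Only set B then holds exposed libraries beside a control, so every difference rests on control replicate 1. Each of these fits thus depends on a single pool and does not replicate the call. With both left out, and no term for the set, 16 genes were lower at POP125x (14.3%), where 13.8% of all genes were, and 4 were higher (3.57%), where 15.7% of all genes were. At POP75x 20 were lower (17.9%), where 10.9% of all genes were, and 2 were higher (1.79%), where 11.8% of all genes were. Of the 16 lower ones, 8 were among the 68 called higher with the set as a term. In that last fit every control was of set C and no exposed library was, so that set and exposure cannot be told apart.

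Over 26 alternative fits, 37 of 112 genes kept the sign of their log2 fold change at POP125x against control, 36 upwards (32.1%), where 16.7% of all genes kept theirs upwards, and *cox4i1l* downwards (0.893%), where 18.0% of all genes did. The alternatives include the fits with the set as a term, which lean on control replicate 1 and POP75x replicate 3. With that term only *cox4i1l* and *ndufa4l2a* were below 0, so other genes could hardly keep a downward sign. These shares are therefore no measure of how firm the directions are. With both libraries left out, *ndufaf1* (0.54, adjusted p = 0.0112), *cox6b2* (0.40, adjusted p = 0.018), *ndufa4* (0.36, adjusted p = 0.037) and *ndufab1a* (0.37, adjusted p = 0.0466), the acyl carrier protein of complex I, were the genes called higher (limma, Benjamini-Hochberg adjusted). The lowest of the 16 called lower was *mt-nd6*, at -1.02 (adjusted p = 0.0082 in limma).

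Paralogues of one subunit allow a comparison within each library that the scaling does not touch. Of 14 such pairs, 3 (21.4%) had log2 ratios that did not overlap between POP125x and controls, where 22.5% of 2586 pairs of symbols ending in a and b did. The share was thus near that of pairs in general, and the 3 pairs are given as values only. The ratio of *cox4i1* to *cox4i1l* was 7.86, 6.61, 6.94 and 7.12 in POP125x, against 5.47, 6.02 and 6.18 in controls, and 7.18, 7.0 and 6.62 in POP75x. It was thus higher in all 7 exposed libraries, and no share over other pairs was taken for POP75x. This ratio largely follows *cox4i1l*, a gene of low counts already picked by its fold change. The ratio of *cox5aa* to *cox5ab*, both copies of subunit 5A, was 1.40, 1.38, 1.49 and 1.40 in POP125x, against 1.20, 0.85 and 1.07 in controls. For *cox8a* to *cox8b* it averaged 5.50 ± 0.22 in POP125x (SD, n = 4) and 4.99 ± 0.22 in controls (SD, n = 3). At POP75x the last pair of ratios overlapped with the controls. Reads that fit both copies of a pair could have been counted for either, and the last 4 genes were chosen after their values were seen.

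**Figure D5:**
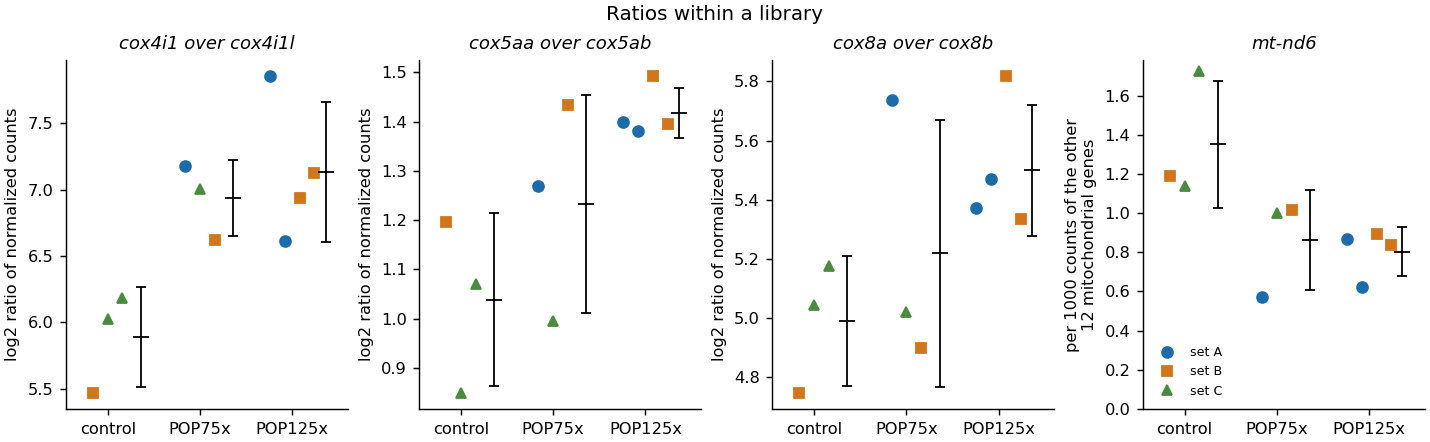
Log2 ratio of normalized counts of 3 paralogue pairs and counts of *mt-nd6* per 1000 counts of the other 12 mitochondrial genes, one point per library from control to POP125x, with the mean and SD of each condition; marker shape and color give the set, and the ratio axes do not start at 0. The *cox4i1* to *cox4i1l* ratio of all exposed libraries lies above the controls, and their *mt-nd6* values lie below them.

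The lists of genes around the respiratory chain also had 0 calls by limma at either dose, and their shares at an unadjusted p under 0.05 lay on both sides of that of all genes. In the TCA cycle, which supplies NADH and succinate, 8 of 20 genes were higher and 1 lower in POP125x than in controls at an unadjusted p under 0.05 (45%, next to the 21.0% of all genes), and their median log2 fold change was 0.21. Citrate synthase (*cs*), the first enzyme of the cycle, had 6198, 6223, 5980 and 6316 normalized counts in POP125x, against 4677, 4727 and 4595 in controls. The fold change was, on the log2 scale, 0.40 (limma, adjusted p = 0.13, SE 0.13), and the groups did not overlap. The exception was *pdha1b*, a copy of the E1 alpha subunit of pyruvate dehydrogenase, with 22.1, 19.5, 34.6 and 32.3 counts in POP125x, against 57.3, 65.5 and 52.2 in controls.

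Cytochrome c, encoded by *cycsb* (*cycsa* was listed at 0 in every library), had 7045, 8743, 12660 and 12126 normalized counts in POP125x, against 4880, 5860 and 6863 in controls. Its log2 fold change was 0.76 (limma, adjusted p = 0.15, SE 0.26). All POP125x libraries were above all controls. Cytochrome c1 (*cyc1*), the complex III subunit that hands electrons to it, had 3831 to 5056 counts in POP125x and 3205 to 5676 in controls, which overlapped. Among 15 regulators of mitochondrial biogenesis, 4 were higher and 1 lower at an unadjusted p under 0.05 (33.3%, next to 21.0% of all genes). Their median log2 fold change was 0.13. The coactivator *ppargc1a*, a driver of respiratory gene expression in mammals, had 693, 624, 769 and 749 counts in POP125x, against 424, 416 and 497 in controls, a log2 fold change of 0.67 (limma, adjusted p = 0.0979, SE 0.19). Its partner *esrra* had a log2 fold change of 0.62 (adjusted p = 0.11, SE 0.18 by the same test). The DNA packaging factor *tfam* overlapped, with 269 to 346 counts in POP125x and 302 to 391 in controls. With DESeq2, which called 7.49% of all genes, *cs*, *cycsb*, *ppargc1a* and *esrra* passed the threshold (adjusted p = 0.000829, 0.0452, 0.0218 and 0.0456). These genes were not picked by the rule for genes described singly.

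Of 24 import genes, 6 were higher without adjustment (25.0%), of 74 genes of the mitochondrial ribosome 7 were (9.46%), and of 27 assembly factors outside the symbol rule 4 were (14.8%), with 0 lower. Import was thus near the 21.0% of all genes, and the ribosome and assembly factors below it. The adenine nucleotide carriers and porins, which pass ADP and ATP across the membranes, had 0 of 8, also below it. With the set as a term, 13 of the 20 TCA cycle genes, 32 of 74 of the mitochondrial ribosome, 10 of 24 of import, 5 of 8 carriers and porins, 9 of 27 assembly factors and 0 of 15 biogenesis regulators were called higher at POP125x, where 8.01% of all genes were. Of these lists, 0 genes were called lower. Among the tissue markers, 2 of 9 genes of skeletal muscle, 1 of 3 of slow muscle, 2 of 4 of liver and 3 of 5 of ionocytes were also called higher in that fit, and 1 of 5 of neurons and 1 of 4 of epidermis were called lower. Without the set as a term, 1 ionocyte marker was called higher and 1 epidermis marker lower, and all 4 epidermis markers were lower at an unadjusted p under 0.05, with a median log2 fold change of -1.05. Their part in these counts was not tested.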

How the data were processed

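Whole larvae at 5 dpf were profiled by RNA-Seq with a stranded mRNA kit and single-end reads, in 4 POP125x, 3 POP75x and 3 control samples. Per the study's methods the authors ran an nf-core pipeline on GRCz11, and DESeq2 is named for differential expression. The deposited signal values are counts divided by a size factor per library. Whole reads were recovered from 100% of values (tolerance 0.01) and gave the depth. Separate deposited tables with the authors' own fold changes, p-values and group means were not used.

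Testing was limited to genes that reached 10 normalized counts in 3 or more libraries and used limma 3.58.1 (R 4.3.3, trend) on log2(value + 1), over all 10 libraries with condition as the only term. Fold changes are on that scale, which understates those of low genes, and p-values were adjusted by Benjamini-Hochberg over 21563 genes. The script was tested on simulated data. Alternatives were count tests on those reads (DESeq2 1.42.0, edgeR 4.0.16) and other pseudocounts, filters and scalings. A replicate block, the sample set as a term and each library left out were further alternatives. Fits without both control replicate 1 and POP75x replicate 3 were added after seeing the data. So were fits with the set as a term without either one, and the one with sets found without the respiratory chain genes. Genes described singly by rule are the highest and lowest of each complex at POP125x against control, the mitochondrial genes (highest, middle and lowest in full) and paralogues of these. Other genes described singly fall outside this rule, among them *cs*, *pdha1b*, *cycsb*, *ppargc1a*, *esrra* and *tfam* of the surrounding lists. The members and lists were chosen with earlier results of these data known. Tables were handled with Python 3.11.15 and pandas 2.3.3. No coordinates are given, since the reference used here for gene names is of another build.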

Additional observations from a re-analysis of the deposited data

Results flagged for a closer look

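In 46 groups of 4 POP125x values, 4 had a library set apart from the other 3 by more than Dixon's 95% limit on the gap, which chance gives in about 1 in 20 groups. *mt-nd6* was lowest in POP125x replicate 2, at 832 normalized counts. *cox6b2* was lowest in POP125x replicate 1, at 1747 normalized counts. The mitochondrial share of reads was highest in POP125x replicate 2, at 8.06%. The log2 ratio of *cox5aa* to *cox5ab* was highest in POP125x replicate 3, at 1.49.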

How the results depend on the processing

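The number of genes called depended most on the set. At POP125x against control, where 0 were called, the set as a term gave 68 (median log2 fold change 0.59). Sets found without these genes were the same sets, so that alternative is the same fit and adds no check. Both are among the 26 alternatives. The set as a term gave 64 without control replicate 1 (median 0.84), 32 without POP75x replicate 3 (median 0.42) and 75 with edgeR (median 0.59). The 64 rest on POP75x replicate 3, and the 32 on control replicate 1, as the only link between exposed and control libraries. DESeq2 gave 2, a fit of only POP125x and control 1 and scaling to reads outside the mitochondrial genome 1. That scaling moved the median of all genes to 0.07. Leaving out control replicate 1 and POP75x replicate 3 together gave 20. Leaving out 1 library at a time gave 0 to 1 calls and medians from -0.10 to 0.13. At POP75x against control, where 0 were called, the set as a term gave 57, and 65 without control replicate 1 (median 0.67). Those 65 again rest on POP75x replicate 3 alone against the controls of its set. edgeR with the set as a term gave 58, and leaving out both libraries gave 22 (median -0.24). Leaving out 1 library at a time gave 0 calls and medians from -0.10 to 0.35, and from -0.34 to 0.14 between the doses.

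At POP125x against control, most genes below 0 in the main fit turned upwards with the set as a term. Only *cox4i1l* (-0.73) stayed below 0 there, while *ndufa4l2a* turned downwards, from 0.12 in the main fit to -0.25. The genes that turned upwards included *atp5pf* (0.45), *mt-nd6* (0.18), *ndufaf3* (0.59) and *uqcrc2a* (0.70). With scaling outside the mitochondrial genome *uqcrc2a* turned too (0.067). Without 1 library, values ran from -0.080 to 0.18 for *cox4i1*, from -0.21 to 0.18 for *sdha*, from -0.27 to 0.15 for *uqcrc2a* and from -0.12 to 0.32 for *mt-atp6*. With the replicate number as a block, 0 genes were called, medians were -0.06 at POP125x and -0.01 at POP75x, and *cox4i1* (-0.083), *sdha* (-0.083) and *mt-atp6* (-0.021) changed sign. Same-numbered libraries correlated between -0.41 and 0.49 in their deviations, so the numbers were not taken to pair them. Apart from the set and library choices, the cause of these changes was not tested.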
